A study of Mus musculus with 62 samples.

Results

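The mesothelium is the single layer of flat cells that covers the outside of each lung lobe and lines the chest cavity. Its genes were followed here through 8 members: the mesothelin gene Msln, the leucine-rich repeat gene Lrrn4, the transcription factor gene Wt1, the uroplakin genes Upk3b and Upk1b, and the keratin genes Krt19, Krt18 and Krt8. A member was taken from the array rows whose platform annotation gave its symbol and no other, with the brightest row kept. By that rule 7 of the 8 were measured, each by 1 row, among 14824 genes with such a row. Krt8 had no such row and was not measured.

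Each of 48 male mice gave RNA of its lung, sampled as the right lower lobe, and the RNA was run on 62 Affymetrix Mouse Exon 1.0 ST arrays. All mice, the PBS mice included, were sensitised by intraperitoneal injection of 10 µg of Der p 1, a protease allergen of the house dust mite, on days 1 and 8. On day 15 they were challenged with 50 µg of Der p 1 or with PBS, and lungs were taken on day 18, 72 hours later. The groups were BALB/cJ Der p 1 (14 mice), BALB/cJ PBS (11 mice), C57BL/6J Der p 1 (12 mice) and C57BL/6J PBS (11 mice). The labels give no ages, and no group was unsensitised. Values are log2 levels from the RMA method, the mean of a mouse's arrays where it had 3, and they are comparable between mice for one gene but not between genes. A difference passed at an adjusted p under 0.05 over all 16715 rows, in limma.

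Mesothelin is a lipid-anchored surface glycoprotein first known from mesothelium and from tumours that arise in it. WT1 is a zinc finger protein that the mesothelium keeps from the embryonic body-cavity lining onward. Uroplakins are membrane proteins best known from the plaques of the bladder surface, where the tetraspanin UPK1B pairs with a uroplakin of the UPK3 family, and Upk3b marks mesothelium in the mouse. LRRN4 is a membrane protein with leucine-rich repeats that is also found in mesothelium. Keratins 8, 18 and 19 are filament proteins of simple epithelia, so airway and alveolar epithelium of the same lobe carry them as well as mesothelium. In a whole lobe, fewer cells of a type and less RNA per cell cannot be told apart.

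The sequence before the transcription start is shown for Upk3b and Lrrn4, the 2 of the 5 non-keratin genes for which a promoter was at hand, because these genes varied together between mice. Each is the 250 bases before the start, from RefSeq on GRCm38.p6, for Upk3b at chr5:136038246-136038495 on the plus strand and for Lrrn4 at chr2:132880863-132881112 on the minus strand. Capitals mark CATTCC, the core motif of TEAD factors, on either strand.
Upk3b: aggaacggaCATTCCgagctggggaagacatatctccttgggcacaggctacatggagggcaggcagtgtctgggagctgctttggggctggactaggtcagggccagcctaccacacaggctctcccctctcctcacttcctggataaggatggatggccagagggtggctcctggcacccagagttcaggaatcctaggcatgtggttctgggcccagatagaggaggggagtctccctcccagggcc
Lrrn4: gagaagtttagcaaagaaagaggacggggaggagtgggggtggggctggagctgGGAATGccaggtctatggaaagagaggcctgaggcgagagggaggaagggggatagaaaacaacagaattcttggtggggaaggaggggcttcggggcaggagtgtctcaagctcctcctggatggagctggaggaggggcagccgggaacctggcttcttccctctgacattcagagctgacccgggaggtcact
The motif lay 241 bases before the start in Upk3b and, read on the other strand as GGAATG, 196 bases before it in Lrrn4. It was in 12.6% of 32851 promoters of this length in the same table, searched on both strands, so a match is a description, not a site. None of 3 further motifs was in either window when searched the same way. The TATA box TATAAA was in 12.4% of all promoters, the AP-1 motif TGANTCA in 6.75%, and the WT1 motif GCGTGGG in 4.30%. No motif's letters contain another's. The windows of Krt8 and Krt18, searched the same way and not shown, held none of these motifs, CATTCC included. Promoters of Msln, Upk1b, Wt1 and Krt19 were not used here.

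Several things about the arrays touch every result. The mouse numbers in the labels start with either 6 or 5, called number series 6 and 5 from here on. The labels do not say what that digit stands for, and each group held mice of both kinds. The level of 62.0% of all rows differed between series 6 and series 5 (28.4% higher in series 6 and 33.6% lower). Of the members, Upk1b, Lrrn4, Msln and Wt1 were higher in series 6, by 0.87 ± 0.12, 0.94 ± 0.16, 0.39 ± 0.15 and 0.19 ± 0.08 (log2 ± SE, adjusted p = 1.04e-07, 2.91e-06, 0.0263 and 0.0433), and the other 3 did not pass. The SD over the rows of an array, which runs from 1.44 to 2.09 over the 62 arrays, averaged 1.86 ± 0.15 in C57BL/6J Der p 1 mice and 1.96 ± 0.11 in C57BL/6J PBS mice (SD over 12 and 11 mice), and 1.95 ± 0.11 in BALB/cJ Der p 1 and 1.94 ± 0.06 in BALB/cJ PBS mice (14 and 11 mice). The lung label held: Sftpc, the surfactant protein C gene of alveolar type II cells, averaged 13.15 to 13.50 in the 4 groups, near the highest value on any array (13.8).

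Lrrn4, Upk1b and Msln spread more widely between mice of one group than most rows. The SD between mice, within groups, was 0.77 for Lrrn4, 0.65 for Upk1b and 0.60 for Msln, larger than that of 98.8%, 97.5% and 96.3% of all rows, whose median was 0.296. These SDs, and those of all rows, hold both number series together, so a shift between the series counts as spread. Lrrn4 in BALB/cJ Der p 1 mice had an SD of 0.92, but 0.48 within series 6 and 0.57 within series 5. In C57BL/6J PBS mice the same 3 values were 0.54, 0.21 and 0.34 for Upk1b, and 0.68, 0.74 and 0.49 for Msln. The SD between repeat arrays of one mouse, available for 7 mice, was 0.16 for Lrrn4, 0.14 for Upk1b and 0.12 for Msln. For Krt18 the SD was 0.30 between repeat arrays and 0.29 between mice, so its spread between mice was no larger than that between arrays of one mouse. Upk3b (0.42 between mice, 0.21 between repeats), Wt1 (0.30 and 0.14) and Krt19 (0.47 and 0.19) had smaller values than the first 3 genes between mice. The SD of Wt1 and Krt18 between mice was larger than that of 53.6% and 48.6% of all rows, so these members varied about as much as the median row.

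**Figure D1:**
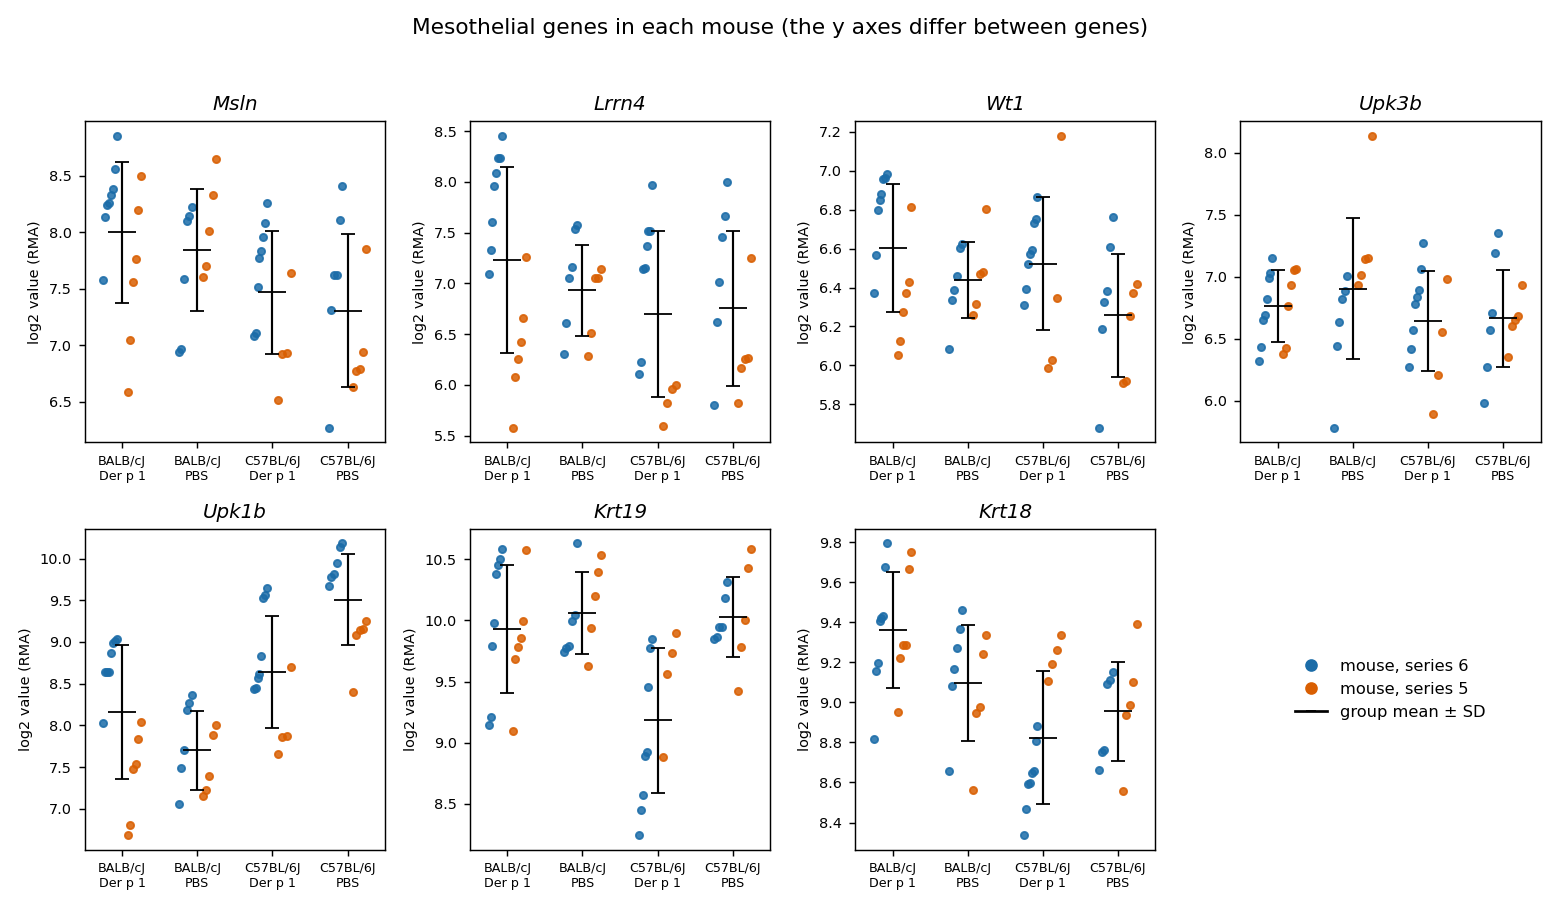
Log2 level of each of the 7 measured genes (y axis, RMA) in each mouse, by group (x axis). Points are mice, coloured by number series, and bars are the group mean ± SD over 14, 11, 12 and 11 mice; Upk1b of BALB/cJ PBS and of C57BL/6J PBS mice do not overlap, while the other genes overlap between all groups.

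After Der p 1 challenge Upk1b and Krt19 were lower in C57BL/6J, and no member passed in BALB/cJ. Between the strains Upk1b was lower in BALB/cJ PBS mice, and Krt19 and Krt18 were higher in BALB/cJ Der p 1 mice. By count, 0 of 7 members passed in limma after challenge in BALB/cJ, against 1.93% of all rows (1.70% higher and 0.233% lower), and 1 of 7 had an unadjusted p under 0.05, against 12.0% of rows. In C57BL/6J 2 of 7 passed, both lower, against 18.8% of all rows (9.85% higher and 8.97% lower). Among challenged mice 2 of 7 passed between strains, both higher in BALB/cJ, against 13.3% of all rows (6.42% higher and 6.87% lower). Between PBS mice of the strains 1 of 7 passed, lower in BALB/cJ, against 4.66% of all rows (1.90% higher and 2.76% lower). Leaving out 1 mouse moved some of these shares of all rows by over 1.5 times: in BALB/cJ to 3.67% without mouse633, 3.02% without mouse634 and 1.29% without mouse620, and in C57BL/6J to 29.7% without mouse531. Without both mouse633 and mouse634 the share in BALB/cJ was 4.84%, and no member passed there. With 7 members these counts are too small to set the group apart from all rows. The median log2 difference of the members and of all rows was 0.16 and −0.03 after challenge in BALB/cJ, −0.06 and 0.07 after challenge in C57BL/6J, 0.18 and 0.03 between PBS mice of the strains, and 0.53 and −0.06 between their challenged mice.

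**Figure D2:**
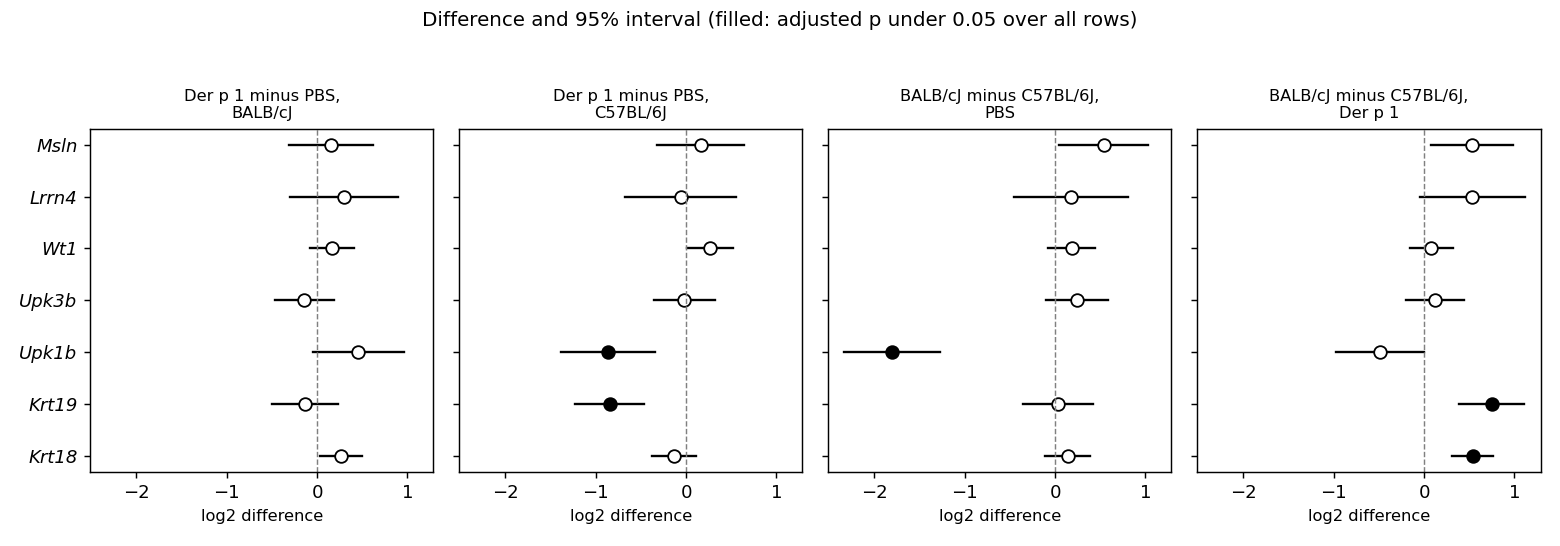
Log2 difference (x axis) of each member in 4 comparisons, with its 95% interval from limma. Filled points passed at an adjusted p under 0.05 over all rows: Upk1b and Krt19 after challenge in C57BL/6J, Upk1b between PBS mice, and Krt19 and Krt18 between challenged mice of the strains.

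Mesothelin levels overlapped between challenged and PBS mice in both strains. Msln ran from 6.58 to 8.85 (median 8.22) in BALB/cJ Der p 1 mice, against 6.94 to 8.65 (median 8.01) in BALB/cJ PBS mice. It ran from 6.52 to 8.26 (median 7.58) in C57BL/6J Der p 1 mice, against 6.27 to 8.41 (median 7.31) in C57BL/6J PBS mice. The difference was 0.16 ± 0.23 in BALB/cJ (95% interval −0.31 to 0.62, adjusted p = 0.885) and 0.16 ± 0.24 in C57BL/6J (−0.32 to 0.65, adjusted p = 0.632). Between strains Msln was 0.53 ± 0.23 above C57BL/6J in BALB/cJ Der p 1 mice (adjusted p = 0.104) and 0.54 ± 0.25 above it in BALB/cJ PBS mice (adjusted p = 0.309), and neither passed.

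Lrrn4 had the largest SD between mice of a group among the 7 members. It lay between 5.58 and 8.45 (median 7.30) in BALB/cJ Der p 1 mice and between 6.29 and 7.58 (median 7.05) in BALB/cJ PBS mice. In BALB/cJ, 6 Der p 1 mice were above every PBS mouse and 3 were below every PBS mouse, so challenged mice lay on both sides. The 6 mice were all of series 6 and the 3 mice all of series 5. In C57BL/6J the range was 5.60 to 7.97 (median 6.68) after Der p 1 and 5.80 to 8.00 (median 6.62) after PBS. The difference was 0.30 ± 0.30 in BALB/cJ (adjusted p = 0.807) and −0.06 ± 0.31 in C57BL/6J (adjusted p = 0.904).

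Wt1, the transcription factor gene, passed in none of the comparisons. It averaged 6.60 ± 0.33 in BALB/cJ Der p 1 and 6.44 ± 0.20 in BALB/cJ PBS mice, and 6.52 ± 0.34 in C57BL/6J Der p 1 and 6.26 ± 0.32 in C57BL/6J PBS mice (SD). The challenge difference was 0.16 ± 0.12 in BALB/cJ (adjusted p = 0.692) and 0.27 ± 0.13 in C57BL/6J (adjusted p = 0.124), where 10 of 12 challenged mice lay above the PBS mean. Its 95% interval in C57BL/6J was 0.01 to 0.52.

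Of the 2 uroplakin genes, Upk3b passed in no comparison, and its groups overlapped. It ran from 6.32 to 7.15 (median 6.79) in BALB/cJ Der p 1 mice and from 5.78 to 8.14 (median 6.94) in BALB/cJ PBS mice. In C57BL/6J it ran from 5.89 to 7.27 (median 6.67) after Der p 1 and from 5.99 to 7.35 (median 6.65) after PBS. The differences were −0.14 ± 0.16 and −0.02 ± 0.17 (adjusted p = 0.843 and 0.942).

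Upk1b was the member with a clear strain difference. BALB/cJ PBS mice had 7.05 to 8.36 (median 7.70) and C57BL/6J PBS mice 8.40 to 10.18 (median 9.67), so every BALB/cJ PBS mouse lay below every C57BL/6J PBS mouse. The difference was −1.81 ± 0.26, a level 3.50-fold lower in BALB/cJ (adjusted p = 1.70e-06), and only 0.168% of rows differed by more. It was −2.08 ± 0.23 within series 6 and −1.48 ± 0.26 within series 5 (adjusted p = 2.05e-07 and 0.00237). After Der p 1 the groups overlapped: BALB/cJ mice had 6.68 to 9.03 (median 8.33) and C57BL/6J mice 7.65 to 9.65 (median 8.59). The difference there was −0.49 ± 0.24 (adjusted p = 0.165). It stayed negative in the 15 other settings of the fit (−0.84 to −0.23) and passed in 2 of them.

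None of the other uroplakin genes passed between PBS mice. Upk1a, Upk2 and Upk3a, bladder uroplakins with a row of their own, differed between PBS mice of the strains by 0.11 ± 0.16, −0.02 ± 0.10 and 0.05 ± 0.11 (adjusted p = 0.945, 0.989 and 0.976). Only Upk2 passed in any of the 5 comparisons, at −0.27 ± 0.09 in BALB/cJ Der p 1 against C57BL/6J Der p 1 mice (adjusted p = 0.0420). There 6.87% of all rows were lower, and 4.66% of all rows passed between PBS mice. Upk3bl had no row of its own.

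After challenge Upk1b was lower in C57BL/6J and did not pass in BALB/cJ. In C57BL/6J it fell by 0.86 ± 0.26 on the log2 scale, or 1.82-fold (adjusted p = 0.0161): 9 of 12 Der p 1 mice lay below the PBS mean, and 6 of 11 PBS mice lay above every Der p 1 mouse. The difference was −0.96 ± 0.21 within series 6 (adjusted p = 0.00786) and −0.99 ± 0.28 within series 5 (adjusted p = 0.0709). With array SD added to the fit it was −0.48 ± 0.21 and did not pass (adjusted p = 0.119). The C57BL/6J PBS mice are the same ones as in the strain comparison above. In BALB/cJ the difference was 0.46 ± 0.25 (95% interval −0.04 to 0.96, adjusted p = 0.493). There 7 of 14 Der p 1 mice were above every PBS mouse and 2 were below every PBS mouse. The 7 mice were all of series 6 and the 2 mice both of series 5.

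The difference between these 2 changes, BALB/cJ minus C57BL/6J, was 1.32 ± 0.36 (95% interval 0.60 to 2.04). It did not pass (adjusted p = 0.402), although its unadjusted p was 0.000585 and only 0.0479% of rows had a larger difference. In this comparison 0 of 7 members passed in limma, against 0.0120% of all rows, and 3 of 7 had an unadjusted p under 0.05, against 10.8% of rows. With number series as a covariate the Upk1b value was 1.41 ± 0.26 and passed (adjusted p = 0.0109). In series 6 alone it was 1.85 ± 0.30 (adjusted p = 0.0188), and in series 5 alone it was 0.85 and did not pass (adjusted p = 0.872).

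**Figure D3:**
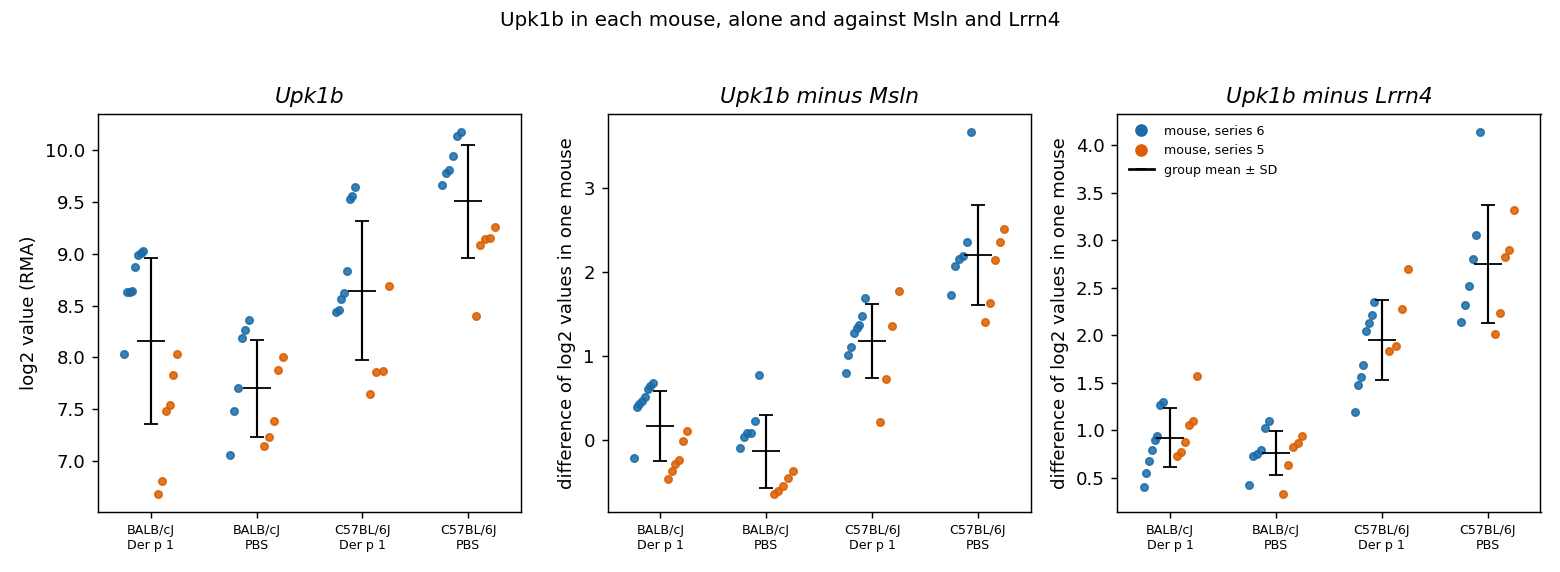
Upk1b in each mouse by group: its log2 level (left), its log2 value minus that of Msln in the same mouse (middle) and minus that of Lrrn4 (right). Points are mice, coloured by number series, and bars are mean ± SD; in the middle and right plots the BALB/cJ PBS mice lie below every C57BL/6J PBS mouse.

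Set against mesothelin of the same mouse, Upk1b was still lower in every BALB/cJ PBS mouse than in any C57BL/6J PBS mouse. Since the zero of such a difference between 2 probe sets has no meaning, its change from group to group is what can be read. Upk1b minus Msln ran from −0.47 to 0.68 (median 0.25) in BALB/cJ Der p 1 mice and from −0.64 to 0.77 (median −0.10) in BALB/cJ PBS mice. It ran from 0.22 to 1.77 (median 1.31) in C57BL/6J Der p 1 mice and from 1.41 to 3.68 (median 2.15) in C57BL/6J PBS mice. Against Lrrn4 the medians were 0.89, 0.79, 1.97 and 2.80 in the same 4 groups. The measure was chosen after the values were seen and is given without a test.

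The 2 measured keratin genes were higher in BALB/cJ than in C57BL/6J among challenged mice, and Krt19 was lower after challenge in C57BL/6J. Krt19 ran from 8.24 to 9.90 (median 9.19) in C57BL/6J Der p 1 mice, against 9.42 to 10.59 (median 9.95) in C57BL/6J PBS mice, and all 12 challenged mice lay below the PBS mean. It fell by 0.85 ± 0.19, or 1.80-fold (adjusted p = 0.00154). The value was −0.998 ± 0.244 within series 6 (adjusted p = 0.00975) and −0.53 ± 0.28 within series 5 (adjusted p = 0.321). With number series and array SD together as covariates it was −0.47 ± 0.16 and did not pass (adjusted p = 0.0634). In BALB/cJ, Krt19 ran from 9.10 to 10.59 (median 9.92) after Der p 1 and from 9.63 to 10.63 (median 9.99) after PBS, a difference of −0.13 ± 0.18 (adjusted p = 0.878).

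Krt18, whose protein pairs with keratin 8 in simple epithelia, averaged 9.36 ± 0.29 in BALB/cJ Der p 1 and 9.10 ± 0.29 in BALB/cJ PBS mice. It averaged 8.82 ± 0.33 in C57BL/6J Der p 1 and 8.95 ± 0.25 in C57BL/6J PBS mice (SD). Neither challenge difference passed (0.27 ± 0.12, adjusted p = 0.320, and −0.13 ± 0.12, adjusted p = 0.438). Among challenged mice, Krt18 was 0.54 ± 0.11 and Krt19 0.75 ± 0.18 higher in BALB/cJ than in C57BL/6J (adjusted p = 0.000814 and 0.00291). For Krt18, 7 of 14 BALB/cJ mice were above every C57BL/6J mouse and 7 of 12 C57BL/6J mice were below every BALB/cJ mouse. Within series 6 the strain differences were 0.74 ± 0.12 for Krt18 and 0.99 ± 0.23 for Krt19 (adjusted p = 0.000113 and 0.00309). Within series 5 they were 0.14 and 0.32 and did not pass (adjusted p = 0.700 and 0.570).

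Some markers of other cells moved in the same C57BL/6J challenge comparison in which Krt19 and Upk1b were lower. Of all rows, 9.85% were higher and 8.97% lower there, and small counts in short lists do not set a list apart from these shares. Of 8 measured genes of general lung epithelium, 2 were lower (the claudin gene Cldn4 at −0.69 ± 0.21 and Prom1 at −0.47 ± 0.17, adjusted p = 0.0190 and 0.0440) and 0 higher. The mean level of the list ran from 7.64 to 8.50 in Der p 1 mice and from 7.78 to 8.55 in PBS mice. Of 7 alveolar type I genes 4 were lower, of 7 endothelial genes 4 were lower, and of 6 leukocyte genes 2 were higher, among them the integrin gene Itgam at 0.91 ± 0.24 (adjusted p = 0.00749). Of 6 club cell genes 2 were lower and 1 higher, and of 6 fat cell genes 2 were lower. Of 10 fibroblast and matrix genes 5 were higher and 1 lower, with a mean level of 8.93 to 9.97 in Der p 1 mice and 8.79 to 9.60 in PBS mice. Of 5 ciliated cell genes 1 was lower, as was 1 of 6 smooth muscle genes and 1 of 7 genes of transitional alveolar epithelium (Cldn4 again). No gene passed of 7 alveolar type II, 4 heart muscle and 5 skeletal muscle genes. The mean level of the fat cell list ran from 5.24 to 5.87 in Der p 1 mice and from 5.19 to 6.39 in PBS mice. Their part in the member results was not tested. The goblet cell list, 5 of 7 genes measured, had 4 higher in each strain, against 1.70% of all rows in BALB/cJ and 9.85% in C57BL/6J. The chloride channel regulator Clca1 was higher by 4.76 ± 0.67 in BALB/cJ and 2.74 ± 0.69 in C57BL/6J (adjusted p = 3.49e-05 and 0.00461).

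Some markers of other cells also differed between challenged mice of the strains, where Krt19 and Krt18 were higher in BALB/cJ. Of all rows, 6.42% were higher and 6.87% lower in BALB/cJ there. Of 8 general epithelial genes 1 was higher (Esrp1, a splicing regulator of epithelial cells, 0.41 ± 0.10, adjusted p = 0.00464), and 7 of 8 had a positive difference. The mean level of that list ran from 7.84 to 8.55 in BALB/cJ Der p 1 mice and from 7.64 to 8.50 in C57BL/6J Der p 1 mice. Higher in BALB/cJ were also 3 of 6 smooth muscle genes, 3 of 7 endothelial genes and 3 of 10 fibroblast and matrix genes, with none of these lists holding a lower one. Of 7 alveolar type I genes 1 was higher and 1 lower, and of 7 genes of transitional alveolar epithelium 2 were higher and 1 lower. Of 6 club cell genes 1 was lower, and of 5 skeletal muscle genes 1 was higher. No gene passed of 7 alveolar type II, 5 ciliated, 5 goblet, 6 leukocyte, 6 fat cell and 4 heart muscle genes. The smooth muscle list ran from 8.49 to 9.44 in BALB/cJ Der p 1 and from 7.97 to 9.22 in C57BL/6J Der p 1 mice. The part of these cells in the keratin differences was not tested.

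Within groups, the 5 non-keratin genes varied together from mouse to mouse. Each mouse's deviation from its group mean was used, over 48 mice, and all 21 pairs of members were tested by permutation within groups (100000 resamples, two-sided). For Msln and Lrrn4 Pearson's r was 0.843 and Spearman's rho 0.830 (both p = 1e-05, the smallest these permutations can give, adjusted p = 4.2e-05 and 5.25e-05). Without the 2 mice farthest from the median of Msln r was 0.815, and it was 0.884 in the 28 mice of series 6 and 0.853 in the 20 mice of series 5. For Upk1b and Lrrn4 r was 0.843 and rho 0.839 (both permutation p = 1e-05), with r of 0.687 within series 6 and 0.652 within series 5. For Msln and Upk3b r was 0.730 and rho 0.718 (both permutation p = 1e-05), with r of 0.848 within series 6 and 0.697 within series 5.

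All 10 pairs among these 5 genes had a positive r, from 0.329 to 0.843 (median 0.573), and all 10 passed for r after adjustment over the 21 pairs. These permutations keep the number series mixed, and Upk1b, Lrrn4, Msln and Wt1 all differ between series. With each mouse set against the mean of its group within its series, and permuted within these, r ran from 0.165 to 0.863 and 8 of the 10 pairs passed. Wt1 with Upk1b (r = 0.165, permutation adjusted p = 0.332) and Wt1 with Lrrn4 (r = 0.316, permutation adjusted p = 0.0520) did not. For Upk1b and Upk3b, the weakest pair, rho was 0.310 and did not pass (adjusted p = 0.0618). Within series 5 the relation did not hold for Wt1 with 2 genes: r was 0.059 with Lrrn4 and 0.103 with Upk1b there, and 0.505 and 0.226 within series 6. With the array SD removed as well, the 10 pairs ran from 0.597 to 0.878. Both settings were added after the data were seen. Of the 48 mice, 12 had all 5 genes above their group mean (10 of them in series 6 and 2 in series 5) and 8 had all 5 at or below it (2 in series 6 and 6 in series 5).

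The keratins varied with each other. Krt19 and Krt18 had r = 0.531 and rho = 0.517 (adjusted p = 0.00108 and 0.00177), with 0.497 within series 6 and 0.512 within series 5. Of the 10 pairs of a keratin with one of the 5 other genes, r ran from −0.18 to 0.38, and 2 passed: Msln with Krt19 (r = 0.359, rho = 0.401, adjusted p = 0.0252 and 0.0114) and Upk1b with Krt19 (r = 0.379, rho = 0.391, adjusted p = 0.0263 and 0.0203). By r to Msln and to Upk1b, Krt19 came in places 2705 and 4074 of all other genes. With series means and array SD removed as well, these places were 350 and 139. Krt18 had r between −0.18 and 0.04 with the 5 genes. These values moved with the number series: Krt19 with Upk1b had r of 0.741 within series 6 and 0.652 within series 5, and Krt18 had 0.332 to 0.590 with the 5 genes within series 5 but −0.166 to 0.327 with all 5 within series 6. With series means removed, Krt19 passed with Upk1b (r = 0.704), Msln (0.478) and Lrrn4 (0.459), and Krt18 with Upk1b (0.415), so 4 of these 10 pairs passed, with permutation adjusted p from 3.5e-05 to 0.00966.

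**Figure D4:**
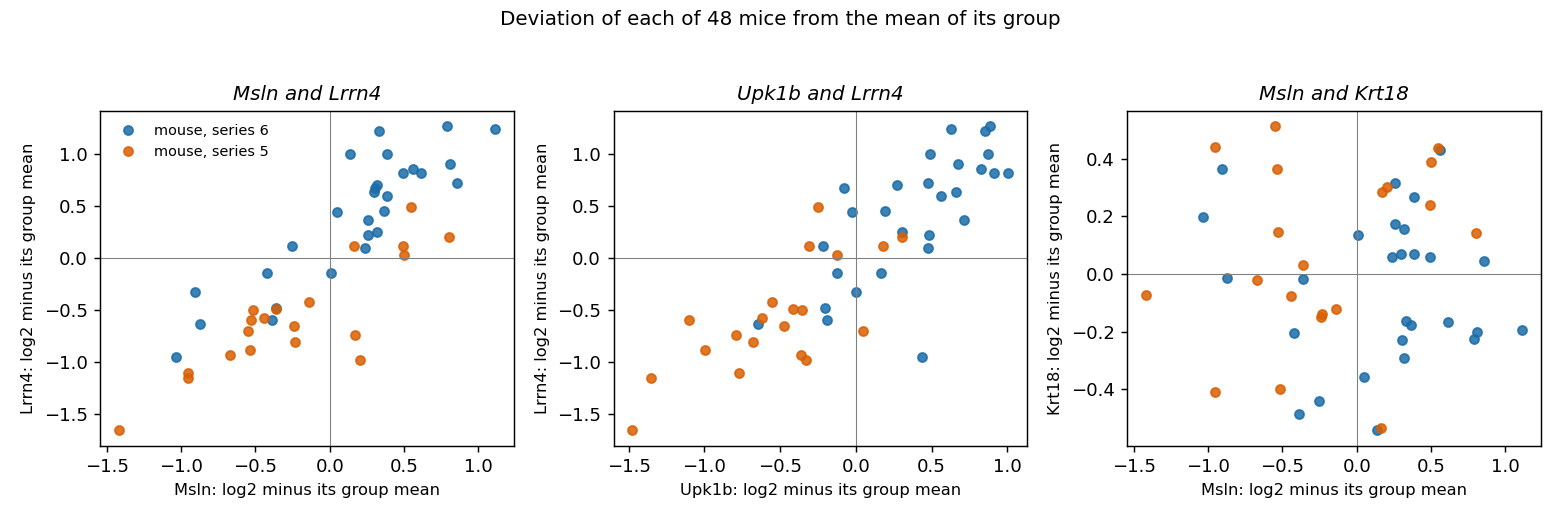
Each point is one of 48 mice, coloured by number series, at its log2 level minus its group mean for a pair of genes. Msln with Lrrn4 (r = 0.843) and Upk1b with Lrrn4 (r = 0.843) lie along a rising line, with more series 6 mice at the upper right, and Msln with Krt18 (r = 0.00) form a round cloud.

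**Figure D5:**
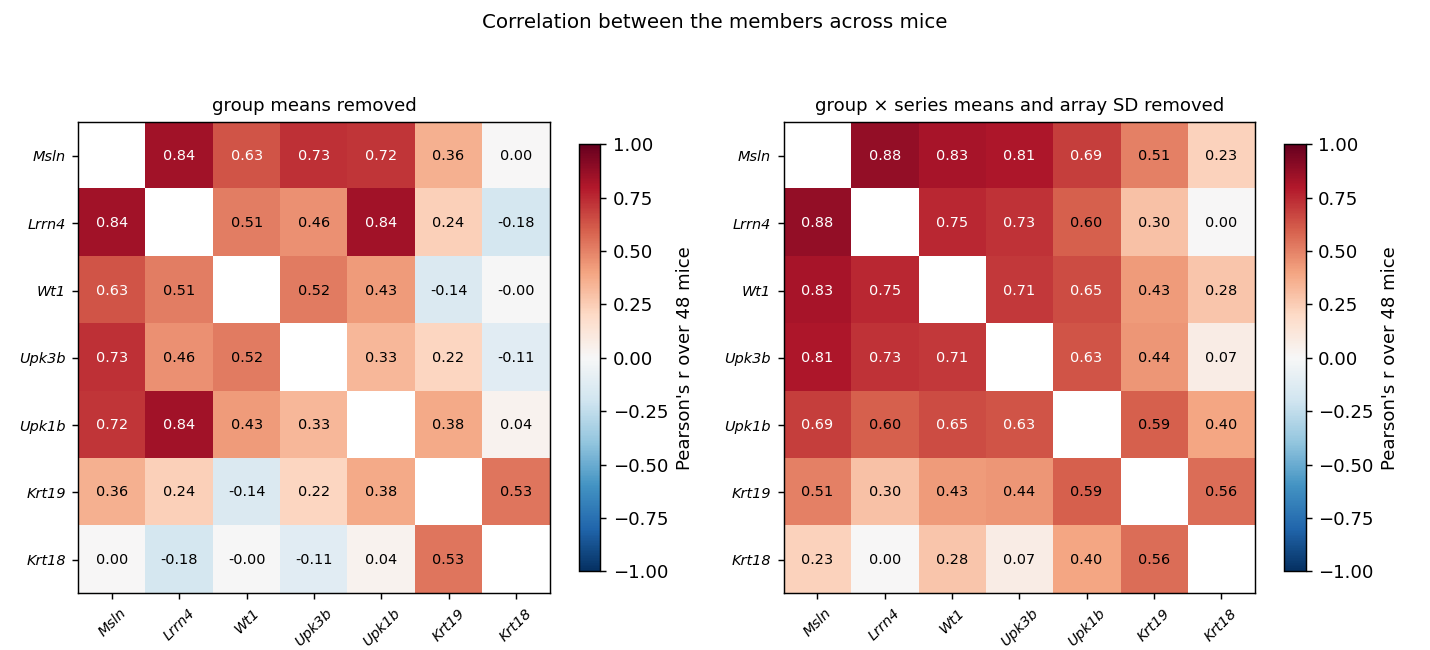
Pearson's r over 48 mice between each pair of the 7 members, with group means removed (left) and with group means within each number series and array SD removed (right). Pairs of the 5 non-keratin genes ran from 0.329 to 0.843 on the left and from 0.597 to 0.878 on the right. Their pairs with a keratin ran from −0.18 to 0.38 on the left and from 0.00 to 0.595 on the right, where Krt19 with Upk1b (0.595) came next to the lowest pair of the 5.

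Searching all 14823 other genes for the pattern most like each member's gave the following nearest genes. The 5 genes with the highest r to Msln were Lrrn4 (0.843), Bnc1 (0.833), Pkhd1l1 (0.827), Cldn15 (0.823) and Slurp1 (0.807), with 97.5% of genes below 0.561. The same bound was 0.774 for Upk1b, 0.688 for Lrrn4, 0.527 for Wt1 and 0.430 for Upk3b. By these bounds the r of Msln with each of the other 4 genes lay above the bound of Msln, while the r of Upk1b with Msln (0.717), Wt1 (0.429) and Upk3b (0.329) and of Lrrn4 with Wt1 (0.512) and Upk3b (0.455) lay below the bound of Upk1b or Lrrn4. The r of Wt1 lay above the bound of Wt1 with Msln (0.628), but below it with Upk3b (0.518), Lrrn4 (0.512) and Upk1b (0.429). The r of Upk3b lay above the bound of Upk3b except with Upk1b (0.329). Among all genes ordered by r to Upk1b, Wt1 came in place 3706 and Upk3b in place 4436. The mesothelial label was thus clearest for the genes around Msln. For Lrrn4 they were Aldh1a2 (0.907), Pkhd1l1 (0.895), Msln (0.843), Upk1b (0.843) and Gpm6a (0.839). For Upk3b they were Msln (0.730), Slurp1 (0.715), Otud5 (0.652), Cldn15 (0.652) and Aar2 (0.647). Bnc1, Cldn15, Aldh1a2 and Gpm6a stand on the list of other mesothelial genes used here.

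For the remaining members, Gpm6a beside Upk1b was the only nearest gene on that list. For Upk1b they were Ctso (0.882), Nubp2 (0.879), Gpm6a (0.878), Decr1 (0.874) and Crbn (0.868), and Lrrn4 came in place 38. For Wt1 they were Fam180a (0.767), Rwdd2b (0.764), Rpp25 (0.724), Mrps2 (0.720) and Chac1 (0.715), with Msln in place 58. For Krt19 they were Tmem43 (0.860), Pex19 (0.858), Ruvbl2 (0.857), Lztr1 (0.855) and Spint1 (0.844), and for Krt18 Abcb6 (0.767), Phf23 (0.747), Prkrip1 (0.708), Trf (0.696) and Hp (0.691). With series means and array SD also removed, the gene most like Wt1 was Msln (0.826), followed by Fam180a (0.779), Cldn15 (0.753), Lrrn4 (0.751) and Bnc1 (0.748). These r values are descriptions, and the points share arrays, depth of array signal and number series.

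Of the 15 other mesothelial genes listed, 13 were measured, and 8 of the 13 had r above 0.5 to Msln: Bnc1, Cldn15, Gpm6a, Nkain4, Aldh1a2, Efemp1, Igfbp6 and Rspo1. The same 8 did so with series means and array SD removed. Aldh1a2 makes retinoic acid, Bnc1 is a zinc finger protein, Rspo1 is a secreted amplifier of WNT signalling and Efemp1 is a matrix glycoprotein. Has1, a hyaluronan synthase, Cdh2, which encodes N-cadherin, Tbx18, Fgf9 and Podxl had r of 0.08, −0.09, −0.28, −0.12 and 0.26 to Msln. Muc16 and Calb2, markers of mesothelium in pathology, had no row of their own.

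After challenge in C57BL/6J, 2 of these 13 genes were lower and 0 higher, against 8.97% and 9.85% of all rows. Their median difference was −0.06, against 0.07 over all rows. Igfbp6, which encodes a binding protein for insulin-like growth factor 2, had 7.16 to 9.66 (median 8.33) in Der p 1 mice and 9.17 to 10.09 (median 9.37) in PBS mice, a difference of −1.14 ± 0.22 (adjusted p = 0.000448). Podxl, a sialomucin gene that endothelium also expresses, was lower, at −0.34 ± 0.12 (adjusted p = 0.0332). Gpm6a and Efemp1 were at −0.79 ± 0.30 and −0.52 ± 0.20 and did not pass (adjusted p = 0.0537 and 0.0614). In BALB/cJ 0 of 13 passed in limma after challenge, against 1.93% of all rows, and 2 had an unadjusted p under 0.05, against 12.0%. Igfbp6 was at −0.49 ± 0.21 there (adjusted p = 0.319), and the median of the 13 genes was −0.11.

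Between strains, Has1 was 0.76 ± 0.22 and Cdh2 0.32 ± 0.10 higher in BALB/cJ PBS than in C57BL/6J PBS mice (adjusted p = 0.0240 and 0.0347). Has1 had 5.96 to 7.88 (median 6.64) in BALB/cJ PBS and 5.38 to 6.57 (median 6.07) in C57BL/6J PBS mice, so the groups overlapped. Cdh2 was also higher among challenged mice, by 0.40 ± 0.09 (adjusted p = 0.00146). The other 11 genes passed in neither strain comparison. Of all rows, 1.90% were higher in BALB/cJ among PBS mice and 6.42% among challenged mice. Among the genes tied to a change of mesothelial into mesenchymal cells, 11 of 12 were measured. After challenge in BALB/cJ 1 was higher (Acta2, smooth muscle actin, 0.69 ± 0.16, adjusted p = 0.00929), against 1.70% of all rows. In C57BL/6J 1 was higher (Fn1, fibronectin, 0.70 ± 0.23, adjusted p = 0.0276) and 1 lower (Zeb1, −0.35 ± 0.10, adjusted p = 0.0101), against 9.85% and 8.97% of all rows.

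Of 12 other keratin genes 9 were measured, and 1 passed in any of the 5 comparisons. It was lower after challenge in C57BL/6J, where 8.97% of all rows were lower. Krt23 had 4.97 to 6.82 (median 5.68) in C57BL/6J Der p 1 mice and 5.91 to 7.24 (median 6.56) in C57BL/6J PBS mice, a difference of −0.77 ± 0.20 (adjusted p = 0.00504). Krt5 and Krt14, keratins of basal cells, were at 0.07 ± 0.13 and 0.27 ± 0.11 and did not pass (adjusted p = 0.708 and 0.0643).

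The challenge change in BALB/cJ differed in sign between the number series for all 5 non-keratin genes, though no value passed. In series 6 Msln was 0.63 ± 0.27, Lrrn4 0.84 ± 0.31 and Upk1b 0.89 ± 0.21 above PBS in Der p 1 mice, and in series 5 the same 3 differences were −0.45 ± 0.30, −0.43 ± 0.26 and −0.13 ± 0.25. Wt1 was at 0.38 in series 6 and −0.12 in series 5, and Upk3b at 0.17 and −0.51. None of these values passed (adjusted p from 0.0769 to 0.943). The difference, series 6 minus series 5, was 1.08 ± 0.42 for Msln, 1.27 ± 0.43 for Lrrn4 and 1.02 ± 0.34 for Upk1b, with unadjusted p of 0.0128, 0.00502 and 0.00389. For Wt1 and Upk3b it was 0.50 ± 0.23 and 0.67 ± 0.30 (limma, unadjusted p = 0.0314 and 0.0315). By this test, added after the data were seen, 0 of 16715 rows (0%) passed in limma after adjustment (adjusted p = 1.00 for each, 630 rows with an unadjusted p under 0.05), so 0 of 7 members passed and 5 had an unadjusted p under 0.05, against 3.77% of rows. In C57BL/6J 1 of 7 had, against 7.24% of rows: Krt18 at −0.53 ± 0.22 (p = 0.0221, adjusted p = 0.630). In BALB/cJ, series 6 held 8 Der p 1 and 6 PBS mice, and series 5 held 6 Der p 1 and 5 PBS mice.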

How the data were processed

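RNA of 48 lungs was measured on 62 exon arrays. Per the labels' protocols the authors made the deposited log2 values in Partek Genomics Suite, by RMA on core exons (version not given in the sources used here). Raw intensities were not used, so masking of probes over strain polymorphisms was not repeated. Of 16715 rows, 14959 carried 1 gene symbol, 1016 several and 740 none, per the platform annotation.

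Repeat arrays of a mouse (3 arrays in 7 mice) were averaged. Arrays of one mouse correlated at 0.968 to 0.994, and no 2 arrays were identical. One model with 4 group means was fitted to all rows with limma 3.58.1 (R 4.3.3, statmod 1.5.0), giving the Der p 1 against PBS difference in each strain, the difference of these, and the strain differences after PBS and after Der p 1. P-values were adjusted by Benjamini-Hochberg over all rows, with a threshold of 0.05. The number of mice, 11 to 14 per group, limits the precision.

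Named genes were the members, the 5 genes most correlated with each, up to 4 passing genes per marker list and comparison (largest difference first), and any other mesothelial, uroplakin or keratin gene of the lists. Sftpc was named outside this rule, after its values were seen. The members and lists were chosen with earlier results of these data known. Correlations, permutations within groups and figures used Python 3.11.15, numpy 2.4.6, pandas 2.3.3, scipy 1.17.1 and matplotlib 3.10.9. The fit was tested on simulated data.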

Additional observations from a re-analysis of the deposited data

How the results depend on the processing

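Each comparison was recomputed after quantile normalization again, median centring, the first array only, mouse as a random block, the dimmest 25% or 50% of rows left out, a trended robust prior, array weights, only the groups compared, number series as a covariate, series 5 or 6 alone, array SD as a covariate, without mouse633 and mouse634, and without each mouse in turn. Mouse633 had the highest mean level of the goblet cell list among BALB/cJ PBS mice (8.68, group mean 5.99). Mouse634 had the lowest among BALB/cJ Der p 1 mice (5.59, group mean 7.96). Without both, 809 rows passed after challenge in BALB/cJ, against 323 as reported. Whether the labels of these mice are right was not tested. The difference of the 2 challenge changes has no fit on only the groups compared, since it uses all 4. Number series and array SD together were added after seeing the data. No paired analysis was possible because the replicate numbers in the labels mark repeat arrays of one mouse, and no mouse of one group is tied to a mouse of another. Wt1 has no value with the dimmest 50% left out, and the mean of all rows of a gene was not run because each member has 1 row. The strain difference of Upk1b in PBS mice passed in 15 of 15 other settings (−2.08 to −1.48).

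The members passing after challenge in C57BL/6J, 2 as reported, were 0 in series 5 alone, 1 with array SD and 1 with series and array SD. For the difference of the challenge changes, 0 as reported, there was 1 with series as a covariate and 1 in series 6 alone. Between challenged mice, 2 as reported, there were 4 with series as a covariate (Msln 0.57 and Lrrn4 0.63 joined) and 0 in series 5 alone. Upk1b there ran from −0.84 to −0.23 over the 15 other settings and passed in 2 of them (lowest adjusted p = 0.00264, limma). Krt19 passed in 13 of the 15 and Krt18 in 14. Leaving out 1 mouse changed 1 of 144 counts of members, to 3 in place of 2: without mouse518, Msln between challenged mice was 0.64 ± 0.22 and passed (adjusted p = 0.0327, limma). The cause of these shifts was not tested.

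Signs turned only for values that passed in neither setting. After challenge in BALB/cJ, series 5 alone gave Upk1b −0.13, Msln −0.45, Wt1 −0.12 and Lrrn4 −0.43, and series 6 alone gave Krt19 0.0100 and Upk3b 0.17. After challenge in C57BL/6J, Krt18 was 0.016 after quantile normalization again and 0.23 in series 5, Lrrn4 0.031 and Upk3b 0.082 in series 6, and Lrrn4 0.35 with array SD and 0.089 with series and array SD. For the difference of changes, Msln was 0.027 with median centring, 0.022 with the first array, 0.032 with series as a covariate and 0.49 in series 6, where Wt1 was 0.11 and Upk3b 0.084. Lrrn4 was −0.088 with array SD, and Wt1 0.13 with series and array SD. Between PBS mice series 6 gave Krt19 −0.021, Lrrn4 −0.053 and Upk3b −0.085. Between challenged mice Wt1 was −0.041 in series 5 and Upk3b −0.0015 in series 6.

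With 1 mouse left out, the ranges that crossed 0 were −0.17 to 0.066 for Lrrn4 and −0.087 to 0.049 for Upk3b after challenge in C57BL/6J, −0.12 to 0.10 for Msln and −0.23 to 0.0030 for Upk3b in the difference of changes, and −0.030 to 0.086 for Krt19 between PBS mice. The number of rows passing over the whole array moved more: after challenge in BALB/cJ it was 323 as reported, 133 in series 5, 0 in series 6, 1135 with series and array SD, and 215 to 614 with 1 mouse left out; after challenge in C57BL/6J it was 3146 as reported, 305 in series 5, 5480 with series as a covariate and 4969 without mouse531.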
